A study of Mus with 21 samples.

Results

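The VEGF and angiopoietin genes and their endothelial context were followed on Day 4 in mouse skin wounds, in 21 RNA-seq libraries. The 10 genes, chosen by symbol from the 18806 genes of the count files, were the ligands Vegfa, Vegfc, Angpt1 and Angpt2, the receptors Kdr, Flt1, Flt4 and Tek, and the endothelial genes Pecam1 and Cdh5. Full-thickness wounds with a diameter of 8 mm were made on both sides of the back of 8-week-old female wild-type C57BL/6 mice and held open by a splint. Control wounds had no hydrogel. The other 6 groups received a gelatin methacryloyl (GelMA) hydrogel of pH 6.4, 7.4 or 8.4 that carried acidic fibroblast growth factor (aFGF) or basic fibroblast growth factor (bFGF), and are named 6.4/aFGF to 8.4/bFGF. Each group had 3 libraries, from mice named as biological replicates. No group had a hydrogel without growth factor, so carrier and growth factor cannot be told apart against control, and the sources used here do not say whether a library holds 1 wound or both. The study also stained CD31, the protein of Pecam1, on Day 4, which makes the level of Pecam1 in 6.4/aFGF wounds a question of its own.

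VEGF-A acts on endothelial cells through Kdr (VEGFR2), its main signalling receptor, while Flt1 (VEGFR1) binds it tightly and serves in part as a decoy. VEGF-C acts on Flt4 (VEGFR3), which marks lymphatic endothelium and sprouting blood vessels. Angpt1, made by cells around the vessel, activates the receptor Tek (Tie2) and keeps vessels quiet and tight, and Angpt2, stored and released by endothelium, commonly works against it when vessels are remodelled in wounds. Pecam1 (CD31) and Cdh5 (VE-cadherin) are junction proteins used to trace endothelium in tissue. In bulk tissue, fewer cells of a type and less RNA per cell cannot be told apart.

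Total counts ran from 34362558 to 37817833 per library, so depth differed little, and the lowest count of any of the 10 genes in any library was 192, for Vegfc. All 10 passed the filter on low counts. The tissue held the main cell types of skin, with levels, in CPM (counts scaled by library total), that summed to 3249 to 8341 per library over keratinocyte genes and 33842 to 74595 over fibroblast genes. Some libraries stood apart. 7.4/aFGF replicate 3 held 24 genes found high in that library alone, with a summed level of the cartilage and bone list of 469 CPM against at most 11.6 elsewhere. 8.4/aFGF replicate 2 held 28 such genes and a summed liver list of 266 CPM against at most 65.5 elsewhere, and 8.4/bFGF replicate 2 held 93 and a summed ovary and oviduct list of 1087 CPM against at most 26.6 elsewhere. No other library held more than 2 such genes. Within control, replicate 2 differed from the other replicates in its immune and hypoxia genes: the neutrophil list summed to 8200 CPM against 1251 and 754, and the hypoxia list to 5338 CPM against 2214 and 2191. Comparisons with control and between growth factors are given below also without control replicate 2 or without the 3 libraries with genes of other tissues.

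Endothelial markers were well expressed in all groups. Per length, as FPKM (counts scaled by gene length and library total), Pecam1 had the highest median level over the libraries at 72.7, followed by Cdh5 at 50.6. The ligands Vegfa and Angpt2 had medians of 27.9 and 16.1 FPKM, and the receptors Kdr, Tek and Flt1 came next at 9.47, 7.08 and 6.52. Vegfc at 4.51, Flt4 at 3.35 and Angpt1 at 2.38 FPKM were the lowest. The 2 Tek ligands therefore stood far apart in level, with Angpt2 above Angpt1 in every library by a ratio of 1.83 to 13.7. These levels use 1 length per gene, 13929 bases for Flt1 and 7843 for Kdr, and short forms of a transcript, such as the soluble form of Flt1, are not resolved.

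The ligand Vegfa varied most between libraries, 6.09-fold from lowest to highest. In control it was at 82.0, 404 and 66.3 CPM in replicates 1, 2 and 3, so that 1 control library held the highest value of all and the other 2 the lowest. Its values were 262, 115 and 117 CPM in 6.4/aFGF, 161, 95.5 and 199.5 in 7.4/aFGF, and 211, 107 and 278 in 8.4/aFGF. With bFGF they were 113, 226 and 268 CPM at pH 6.4, 111, 98.6 and 252 at pH 7.4, and 99.6, 188 and 90.8 at pH 8.4. Every hydrogel group held libraries on both sides of the hydrogel median of 139 CPM, and the groups overlapped.

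Angpt2, which opposes Angpt1 at Tek, had the same split in control, with 23.8, 91.8 and 19.4 CPM. Among hydrogels its values were 94.7, 58.5 and 41.9 CPM in 6.4/aFGF, 59.96, 69.1 and 73.4 in 7.4/aFGF, and 70.3, 58.2 and 83.4 in 8.4/aFGF. The bFGF groups held 40.9, 60.8 and 72.3 CPM at pH 6.4, 34.1, 33.6 and 66.4 at pH 7.4, and 31.2, 47.2 and 51.5 at pH 8.4. Control replicates 1 and 3 lay below all 18 hydrogel libraries, and control replicate 2 lay above all of them but 1.

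The stabilising ligand Angpt1 was scarce and even. It lay between 6.47 and 14.2 CPM in all libraries, with 11.1, 10.7 and 8.99 in 6.4/aFGF and 8.18, 7.398 and 7.73 in 7.4/aFGF, which do not overlap. Vegfc, the ligand of Flt4, lay between 5.18 and 11.7 CPM. Over the 9 aFGF libraries its lowest, median and highest values were 5.18, 6.85 and 11.1 CPM, and over the 9 bFGF libraries 7.42, 9.72 and 11.7. The sets overlapped, although all but 1 of the bFGF libraries lay above all but 1 of the aFGF libraries in the plot of the levels.

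**Figure D1:**
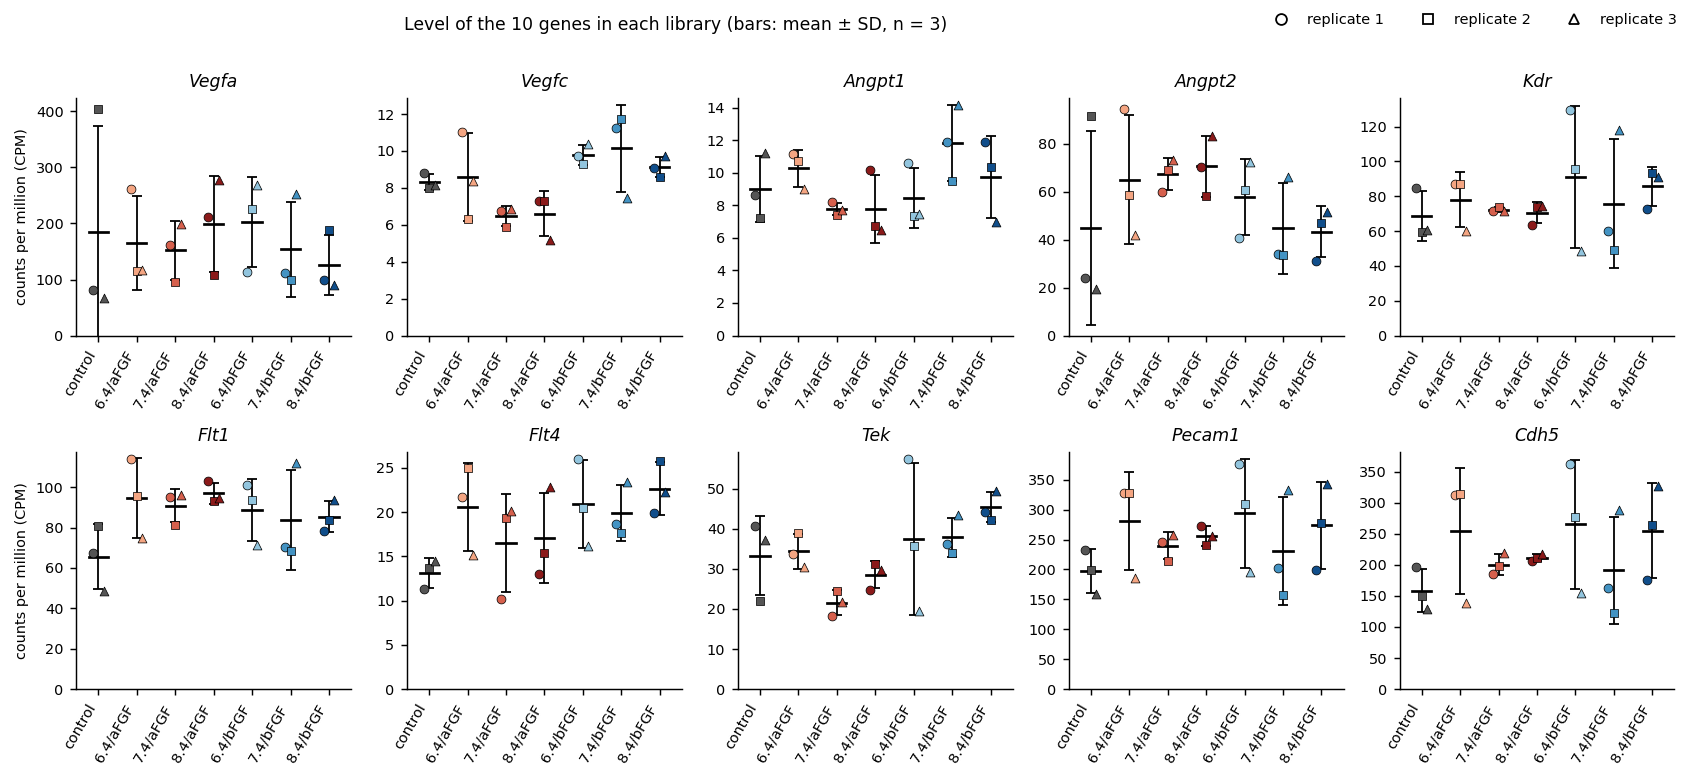
Level of each of the 10 genes in CPM (vertical axis, from 0) in the 7 groups (horizontal axis). Points are libraries, horizontal bars the group means and whiskers the SD of 3 libraries, which for Vegfa in control extends below 0 and is cut there. Vegfa and Angpt2 in control are split between 1 high and 2 low libraries, and Tek is lowest in 7.4/aFGF. Pecam1 and Cdh5 overlap between all pairs of groups except control and 8.4/aFGF, where control lies lower.

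Among the receptors, Tek showed the clearest order. It was at 33.7, 38.9 and 30.4 CPM in 6.4/aFGF, 18.2, 24.4 and 21.8 in 7.4/aFGF, and 24.7, 31.3 and 29.7 in 8.4/aFGF. The bFGF groups held 57.3, 35.8 and 19.5 CPM at pH 6.4, 36.2, 33.96 and 43.4 at pH 7.4, and 44.3, 42.3 and 49.5 at pH 8.4, and control held 40.7, 22.1 and 37.2. At pH 7.4 and at pH 8.4, every bFGF library lay above every aFGF library, whereas at pH 6.4 the bFGF libraries spanned nearly the whole range. The share of all genes that separate the growth factors in this way was not computed, so how common this is remains unknown. Kdr lay between 48.4 and 129 CPM, with its 2 lowest and 5 highest values all in bFGF libraries. Flt1 lay between 48.8 and 114 CPM and had its lowest group mean in control, at 67.3, 80.7 and 48.8. Flt4 lay between 10.2 and 26.05 CPM, with control at 11.3, 13.7 and 14.4.

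In both junction genes control lay below 8.4/aFGF without overlap, and all other pairs of groups overlapped. Cdh5 was at most 196 CPM in control and at least 207 CPM in 8.4/aFGF. The share of all genes that separate these groups was not computed. Pecam1 was at 233, 199.8 and 160 CPM in control, 328, 328 and 186 in 6.4/aFGF, 246, 215 and 258 in 7.4/aFGF, and 273, 240.4 and 255 in 8.4/aFGF. With bFGF it was at 376, 309.7 and 195 CPM at pH 6.4, 202, 157 and 332 at pH 7.4, and 199, 278 and 343 at pH 8.4. The highest library belonged to 6.4/bFGF and the lowest to 7.4/bFGF. In 6.4/aFGF, 2 libraries lay at 328 CPM and the third, at 186, lay below 18 of the other 20. Cdh5 had the same pattern, with 313, 314 and 138 CPM in 6.4/aFGF and 123 to 363 CPM over all libraries.

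Ordering the 7 group means of each gene gave 60 pairs of neighbours. The difference between neighbours exceeded the larger of their SDs in 4 pairs. These were Vegfc in 6.4/bFGF over 8.4/bFGF and in control over 8.4/aFGF, and Tek in 8.4/bFGF over 7.4/bFGF and in 8.4/aFGF over 7.4/aFGF. For the other 8 genes no neighbours in the order differed by more than their spread. The same count was not made over all genes, so how common such gaps are is not known.

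The first comparison asked what the pH of the aFGF hydrogel changed. Between 6.4/aFGF and 7.4/aFGF, Tek differed most, with a mean of 34.4 ± 4.29 CPM (SD, n = 3) against 21.5 ± 3.11 CPM, a log2 fold change of 0.67 (SE 0.16, 95% interval 0.29 to 1.06). Angpt1 stood at 10.3 ± 1.14 against 7.77 ± 0.39 CPM, a log2 fold change of 0.40 (SE 0.17, interval 0.01 to 0.80). These were the 2 of 10 genes whose groups did not overlap, beside 10.9% of all genes tested. Neither passed the edgeR test after adjustment over 15019 genes (adjusted p = 0.83 for both), and 0 of the 10 genes were called at adjusted p under 0.05 with a log2 fold change beyond 0.58. The background was the same, at 0% of genes called, and 2 of the 10 genes had an unadjusted p under 0.05, as did 750 of the 15019. DESeq2 called 0 of the 10 in this and every other comparison. Without 7.4/aFGF replicate 3, the library with cartilage genes, Tek and Angpt1 had log2 fold changes of 0.70 and 0.41 (adjusted p = 0.66 for both).

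Pecam1 was at 280.4 ± 82.1 CPM in 6.4/aFGF and 239.5 ± 22.2 in 7.4/aFGF. Its log2 fold change was 0.22 (SE 0.23, interval −0.33 to 0.77, adjusted p = 0.88), so these libraries allowed a level in 6.4/aFGF anywhere from somewhat lower to well above that in 7.4/aFGF. Cdh5 had a log2 fold change of 0.34 (SE 0.31, adjusted p = 0.86). Of the 10 genes, 9 had positive log2 fold changes, with a median of 0.26 beside 0.02 over all genes tested. The endothelial identity list, of general endothelial markers, had 24 of 25 positive with a median of 0.32, the adipocyte list 10 of 10 with a median of 0.82, and the fibroblast list 10 of 10 with a median of 0.26. No gene of these lists was called, and the part of fat or fibroblasts in these values was not tested. Without 6.4/aFGF replicate 3, the low library of its group, the log2 fold changes were 0.44 for Pecam1 (adjusted p = 0.52) and 0.63 for Cdh5 (adjusted p = 0.50).

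With bFGF in place of aFGF, the same pH contrast called 0 of the 10 genes, beside 0% of 14976 genes tested, and none had an unadjusted p under 0.05. None of the 10 had groups that did not overlap, beside 15.3% of all genes. Tek had a log2 fold change of 0.01 (SE 0.36), Angpt1 one of −0.46 (SE 0.22), Pecam1 one of 0.38 (SE 0.34) and Cdh5 one of 0.50 (SE 0.40). Without 7.4/bFGF replicate 3 those of Pecam1 and Cdh5 were 0.72 and 0.90, and without 6.4/bFGF replicate 1 they were 0.15 and 0.20. Of the 10 genes, 8 had positive log2 fold changes, with a median of 0.20 beside 0.006 over all genes tested. The endothelial identity list had 25 of 25 positive with a median of 0.39 and 0 called, so its positive values at pH 6.4 were not particular to aFGF. Whether the pH contrast differed between the growth factors was tested as an interaction, which called 0 of the 10 genes beside 0% of 15449 genes. Angpt1 had the largest interaction, 0.86 on the log2 scale (SE 0.26, adjusted p = 0.80), and was the 1 gene of the 10 with an unadjusted p under 0.05. For Tek the interaction was 0.66 (SE 0.43, adjusted p = 0.84), with 0.36 without 6.4/bFGF replicate 3 and 1.10 without 6.4/bFGF replicate 1. In the pH contrast with bFGF, all 10 skeletal muscle genes had negative log2 fold changes with a median of −1.96, but 0 were called and 0 had an unadjusted p under 0.05. Their summed level was 1766 to 2628 CPM in 6.4/bFGF and 262 to 13741 CPM in 7.4/bFGF, so the groups overlapped. Adipocyte genes were negative in 10 of 10 with a median of −1.51, 0 called and 2 with an unadjusted p under 0.05. The part of either list in the results was not tested.

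For the CD31 question, 6.4/aFGF was compared with the mean of the other 6 groups. Pecam1 stood at 280.4 ± 82.1 CPM against 248 ± 61.8 CPM over the other 18 libraries, a log2 fold change of 0.19 (SE 0.22, interval −0.27 to 0.65, adjusted p = 0.98). Cdh5 stood at 255 ± 101 against 214 ± 66.6 CPM, a log2 fold change of 0.28 (SE 0.26, interval −0.28 to 0.83, adjusted p = 0.97). Both differences were smaller than the spread within 6.4/aFGF. Without 6.4/aFGF replicate 3 the value for Pecam1 was 0.41 (adjusted p = 0.81). The remaining 8 genes had log2 fold changes from −0.02 to 0.28. No gene of the 10 was called, beside 0% of 15811 genes, and none had an unadjusted p under 0.05.

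The wider endothelial lists differed among themselves in this comparison. Endothelial identity had 23 of 25 genes positive with a median log2 fold change of 0.19 beside 0.01 over all genes, and none called. Its smallest p-values belonged to S1pr1, a sphingosine receptor that steadies vessels (0.25, adjusted p = 0.90), and Robo4, a guidance receptor of endothelium (0.48, adjusted p = 0.90). The tip cell and Notch list, of genes active in sprouting vessels, had 7 of 16 positive and a median of −0.03. The endothelial activation list had 5 of 5 positive with a median of 0.43, led by Sele, the E-selectin that captures leukocytes (1.17, SE 0.40, adjusted p = 0.76), and Apold1 (0.80, SE 0.40, adjusted p = 0.88). Among the 23 other genes of the VEGF and angiopoietin pathway, 14 were positive, 0 were called, and the adaptor Shb had the smallest p (0.36, SE 0.13, adjusted p = 0.83). Among lists of other cells, keratinocyte genes were positive in 8 of 10 with a median of 0.20, skeletal muscle genes in 8 of 10 with 0.20, adipocyte genes in 9 of 10 with 0.53 and liver genes in 11 of 11 with 1.34. None of these genes was called, and their part in the endothelial values was not tested. The liver genes with the smallest p were scarce. Ttr averaged 0.68 CPM in 6.4/aFGF and 1.44 CPM over the other libraries, and Fga 0.55 and 0.68 CPM. The order of these means runs against their log2 fold changes of 2.43 and 2.16.

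The control libraries differed among themselves, and the values of hydrogels against control changed with the control library left out. With all 21 libraries, Flt1 was at 90.0 ± 13.7 CPM over 18 hydrogel libraries and 65.6 ± 16.0 CPM over 3 control libraries, a log2 fold change of 0.45 (SE 0.16, interval 0.11 to 0.80, adjusted p = 0.20). Flt4 was at 19.6 ± 4.43 against 13.1 ± 1.67 CPM, a log2 fold change of 0.57 (SE 0.21, interval 0.12 to 1.02, adjusted p = 0.21). Pecam1 and Cdh5 had log2 fold changes of 0.40 (SE 0.23, adjusted p = 0.39) and 0.52 (SE 0.28, adjusted p = 0.36), Kdr one of 0.20 (SE 0.24), Angpt2 one of 0.34 (SE 0.37) and Vegfa one of −0.16 (SE 0.47). No gene of the 10 was called, beside 0.00632% of 15811 genes, and 2 had an unadjusted p under 0.05, as did 2640 of the 15811.

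Without control replicate 2, 1189 of 16069 genes were called, 7.4%, and 2 of the 10 were among them. Angpt2 was higher in hydrogels, at a mean of 58.2 CPM against 21.6 CPM in control replicates 1 and 3 (log2 fold change 1.40, SE 0.32, adjusted p = 0.017). Flt1 was higher too, at 90.0 against 58.02 CPM (log2 fold change 0.63, SE 0.19, adjusted p = 0.044). Vegfa, at 166 against 74.1 CPM, did not pass (log2 fold change 1.15, SE 0.48, adjusted p = 0.13), nor did Flt4 (0.60, SE 0.26, adjusted p = 0.15). Pecam1 had 0.41 (SE 0.28, adjusted p = 0.36). Control replicate 2 held the highest control level of Angpt2 (91.8 CPM), of Flt1 and of Vegfa. The values of these genes without it therefore rest on the 2 lower control libraries. The other control libraries weighed on the results too. Without control replicate 3, Flt1 had 0.28, Pecam1 0.27, Angpt2 −0.017 and Vegfa −0.56. Without control replicate 1 they had 0.47, 0.54, 0.031 and −0.53. Of 10 neutrophil genes, 0 were called with all 21 libraries, where 1 had an unadjusted p under 0.05, and 7 were called higher in hydrogels without control replicate 2. Their list summed to 754 and 1251 CPM in those 2 control libraries and to 3003 to 12738 CPM in the hydrogel libraries. The adipocyte list went the other way, with 10 of 10 genes negative in the comparison of all 21 libraries, a median of −1.28 and none called, and 5 called lower without control replicate 2. It had sums of 11074, 989 and 6177 CPM in control replicates 1, 2 and 3. The part of either in the results was not tested.

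Of the wider lists in the comparison of all libraries, endothelial identity had 22 of 25 positive log2 fold changes with a median of 0.33, beside −0.02 over all genes. Emcn, a sialomucin of capillaries and veins, had 0.72 (SE 0.27, adjusted p = 0.21) and Plvap, which forms the diaphragms of fenestrated vessels, 0.61 (SE 0.23, adjusted p = 0.21). Tip cell and Notch genes had 12 of 16 positive, with Notch4 at 0.66 (SE 0.29, adjusted p = 0.26) and Esm1, a marker of sprouting cells, at 0.89 (SE 0.41, adjusted p = 0.29). Sele had 1.40 (SE 0.49, adjusted p = 0.19) and Vcam1 0.47 (SE 0.19, adjusted p = 0.24). Of the 23 other pathway genes 16 were positive, and the smallest p-values belonged to Vegfb, a ligand of Flt1 (−0.67, SE 0.21, adjusted p = 0.16), and Itga5, the fibronectin receptor chain (0.63, SE 0.27, adjusted p = 0.26). No gene of these lists was called. Without control replicate 2, 7.4% of all 16069 genes tested were called. Of the endothelial identity genes, 17 of 25 were then positive with a median of 0.27 and 0 called. Tip cell and Notch genes then had 13 of 16 positive and 1 called higher, the 5 activation genes 2 called higher, Sele among them (2.11, adjusted p = 0.033), and the 23 pathway genes 2 called higher, Itga5 among them (1.25, adjusted p = 0.011), and Vegfb called lower (−1.01, adjusted p = 0.0036).

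**Figure D2:**
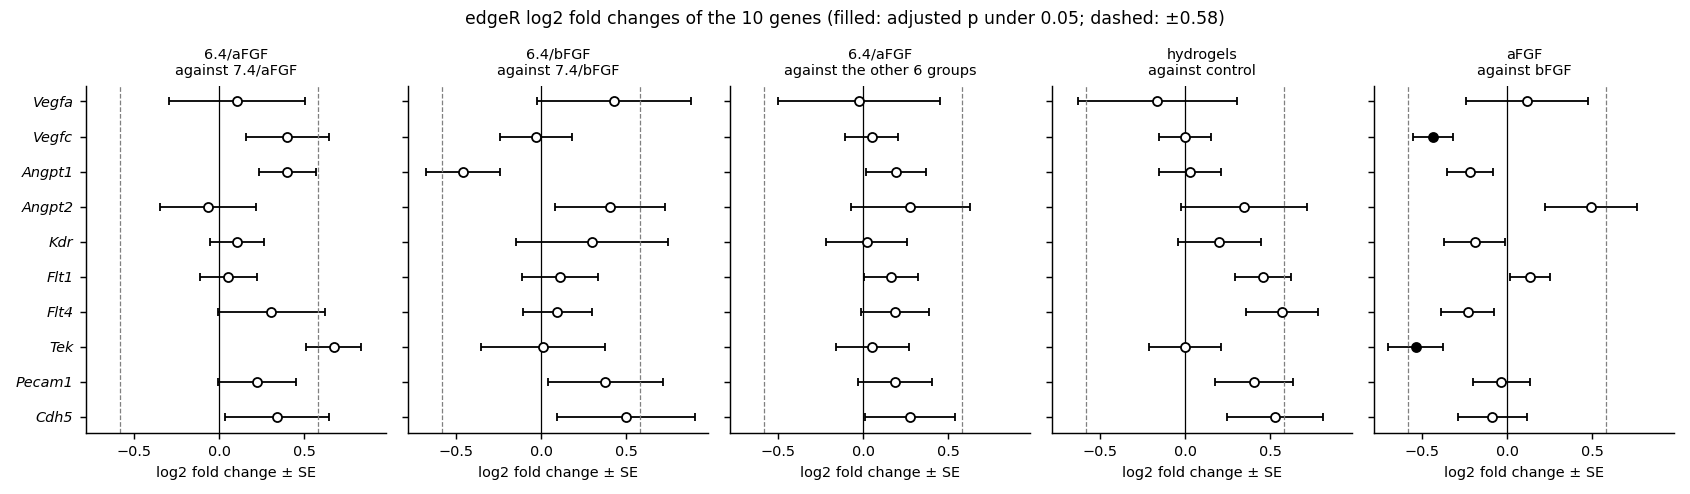
edgeR log2 fold changes of the 10 genes in 5 comparisons, with whiskers of 1 SE. Filled points have an adjusted p under 0.05 and dashed lines mark a log2 fold change of 0.58 in either direction. Only Vegfc and Tek in aFGF against bFGF are filled, and both lie short of the line.

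With all libraries in the fit, growth factor gave the only adjusted p-values under 0.05 among the 10 genes. Over the 3 pH values, Vegfc had a mean of 7.22 ± 1.71 CPM (SD, n = 9) with aFGF and 9.70 ± 1.32 CPM with bFGF, and was lower with aFGF by a log2 fold change of −0.44 (SE 0.12, interval −0.68 to −0.19, adjusted p = 0.028). Tek had 28.1 ± 6.41 against 40.3 ± 10.7 CPM and was also lower with aFGF, by −0.54 (SE 0.16, interval −0.88 to −0.19, adjusted p = 0.045). With 2 of 10 genes at an adjusted p under 0.05, beside 10.8% of 15811 genes, neither reached the fold limit of 0.58, so 0 of 10 were called beside 3.2%. Angpt2 had 0.49 in the other direction (SE 0.27, adjusted p = 0.25) and Angpt1 −0.22 (SE 0.14, adjusted p = 0.32), and the means of Pecam1 were 258.8 ± 46.8 and 265.9 ± 78.9 CPM.

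At each pH taken alone, the log2 fold change of Tek was −0.13 at pH 6.4, −0.82 at pH 7.4 and −0.67 at pH 8.4, and that of Vegfc was −0.19, −0.65 and −0.47. None had an adjusted p under 0.05. Whether the growth factor contrast differed between pH 6.4 and 7.4 is the interaction given above, which passed for neither gene (adjusted p = 0.84 for Tek and 0.85 for Vegfc), and pH 8.4 was not tested against the others. Without the 3 libraries that held genes of other tissues, the log2 fold changes were −0.49 for Vegfc and −0.58 for Tek, and with fewer libraries neither passed (adjusted p = 0.054 and 0.094). Over 30 alternatives the adjusted p of Vegfc ran from 0.0053 to 0.062 and passed in 23, and that of Tek ran from 0.0099 to 0.099 and passed in 8. Without 6.4/bFGF replicate 3, Tek also passed the fold limit (log2 fold change −0.64, adjusted p = 0.0099). Genes of the liver list differed with growth factor as well, with 8 of 11, Alb and Ttr among them, called higher with aFGF, and Inha of the ovary list was called lower. Without the 3 libraries these were 4 of 11 and 0. Besides 8.4/aFGF replicate 2, their summed level was 3.36 to 65.5 CPM in aFGF libraries and 1.59 to 53.1 CPM in bFGF libraries.

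In the pathway, endothelial, and pericyte and mural lists, 6 genes were called between aFGF and bFGF, beside 3.2% of all genes tested. Not all of them are particular to vessels. Lower with aFGF were Ccbe1, which helps to process VEGF-C (23.1 ± 12.3 against 53.0 ± 9.82 CPM, log2 fold change −1.24, adjusted p = 0.012), Unc5b, a netrin receptor of endothelial cells (−0.84, adjusted p = 0.025), Kcne3 (−1.13, adjusted p = 0.0096) and Pdgfrb, the PDGF receptor of pericytes and fibroblasts (−0.79, adjusted p = 0.023). Higher were Itga5 (0.79, adjusted p = 0.020) and Sele (28.7 ± 11.2 against 13.0 ± 7.16 CPM, 1.17, adjusted p = 0.036). Without the 3 libraries with genes of other tissues, where 2.33% of all genes were called, Ccbe1, Unc5b, Kcne3 and Pdgfrb were still called, while Itga5 (0.85, adjusted p = 0.052) and Sele (1.33, adjusted p = 0.058) were not. Pathway genes numbered 1 called higher and 1 called lower of 23, tip cell and Notch genes 2 lower of 16, endothelial activation 1 higher of 5, and pericyte and mural genes 1 lower of 9, where 8 of 9 were negative with a median of −0.46. Endothelial identity had 0 of 25 called and a median of −0.02. Macrophage genes had 10 of 10 positive values with a median of 0.20 and Fcgr1 called higher (0.66, adjusted p = 0.044; 0.57 and not called without the 3 libraries), and fibroblast genes 8 of 10 negative with a median of −0.26 and none called. The part of these cells in the Vegfc and Tek values was not tested.

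A test for any difference among the 7 groups called 0 of the 10 genes, beside 0.114% of 15811. Vegfc and Tek were the 2 with an unadjusted p under 0.05, which 3055 of the 15811 genes had, with adjusted p = 0.22 and 0.25. Pecam1 and Cdh5 had adjusted p = 0.68 and 0.58.

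Ratios between genes of 1 library do not depend on its total. The Angpt2 to Angpt1 ratio, taken on FPKM, had group means on the log2 scale from 1.94 in 7.4/bFGF to 3.28 in 8.4/aFGF. It was 2.67 ± 0.45 in 6.4/aFGF and 3.20 ± 0.21 in 7.4/aFGF, a difference of −0.53 (two-sided exact permutation test, p = 0.2, where the smallest p possible is 0.1). In control its 3 libraries lay at 1.55, 3.75 and 0.87. The Flt1 to Kdr ratio, of decoy to main receptor, lay between 0.44 and 0.91 in all libraries. This order depends on the length of 13929 bases taken for Flt1, since in CPM, which uses no length, the median was 93.4 for Flt1 and 73.8 for Kdr. The Kdr to Pecam1 ratio was the most even, between 0.10 and 0.16. Hydrogels differed from control in these 3 ratios by 0.64, 0.29 and −0.21 on the log2 scale (exact permutation p = 0.22, 0.13 and 0.088), and none passed after adjustment over the 13 ratio tests (adjusted p = 0.40, 0.33 and 0.33). Without control replicate 2 the differences were 1.48, 0.55 and −0.32 (exact permutation test, adjusted p = 0.068, 0.068 and 0.10), and without control replicate 3 they were 0.045, 0.17 and −0.14.

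Tek per Pecam1 was added after the values were seen. Its mean log2 ratio was −3.77 ± 0.35 over 9 aFGF and −3.28 ± 0.39 over 9 bFGF libraries, a difference of −0.50 (two-sided exact permutation test, p = 0.012, adjusted p = 0.16). At pH 7.4 the difference was −0.94 and at pH 8.4 −0.61, each with groups that did not overlap and the exact p of 0.1 that is the smallest for 3 against 3. At pH 6.4 the difference was 0.06 (exact permutation p = 0.7). How often other ratios separate the growth factors in this way was not computed.

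**Figure D3:**
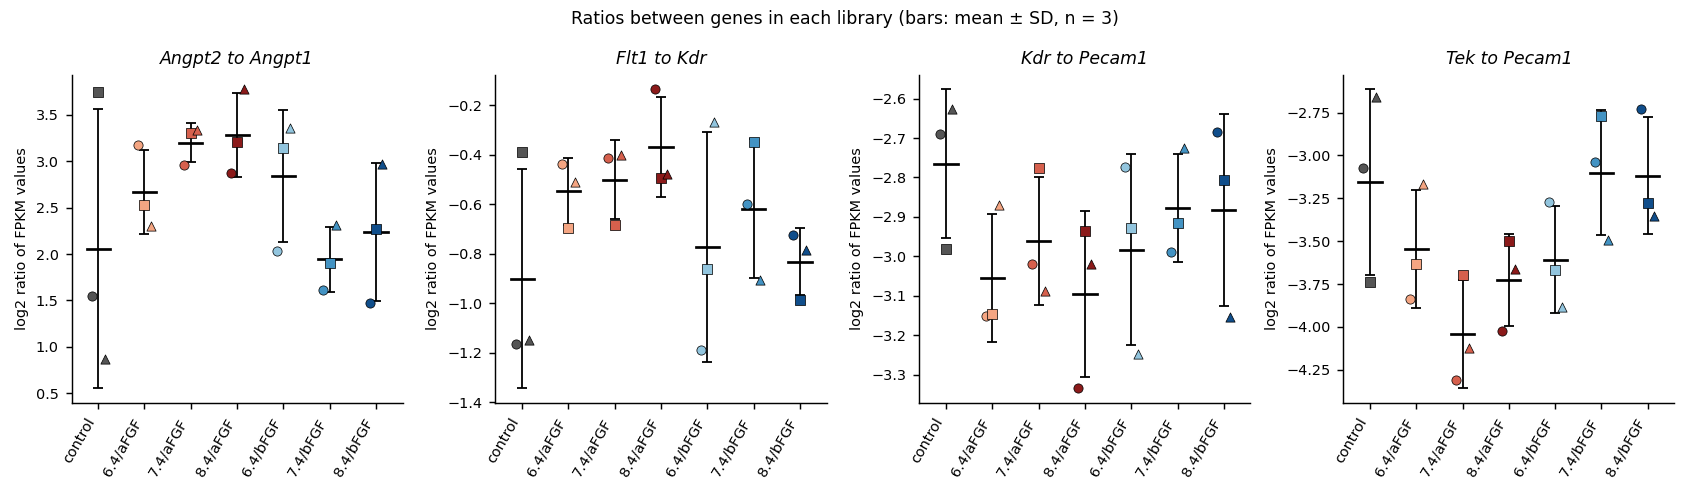
Log2 ratio of FPKM values (vertical axis, not from 0) between 2 genes in each library, by group (horizontal axis). Points are libraries, with circles, squares and triangles for replicates 1, 2 and 3, and bars show mean ± SD of 3 libraries. Angpt2 to Angpt1 in control runs from 0.87 to 3.75, and Tek to Pecam1 lies lower with aFGF than with bFGF at pH 7.4 and 8.4 but not at pH 6.4.

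Although most groups overlapped, the genes did not vary independently. Over the 21 libraries, Pecam1 and Cdh5 had a Pearson's r of 0.98 (Spearman's rho 0.97) on log2 CPM, and r was 0.97 without the 2 libraries farthest from the median of Pecam1. Its permutation p of 1e-05 was the smallest that 100000 permutations can give, with adjusted p = 0.00011 over 45 pairs. Kdr followed both, with r = 0.86 to Pecam1 and 0.88 to Cdh5, and Flt1 had 0.83 and 0.77. Without the 2 libraries farthest from the median, Kdr and Flt1 had 0.82 and 0.86 to Pecam1. Taking each library as its deviation from its group mean left r at 0.98 for Pecam1 and Cdh5, 0.88 for Kdr and Pecam1 and 0.86 for Flt1 and Pecam1, so these genes varied together between wounds of the same group. In all, 13 of 45 pairs had an adjusted p under 0.05, all positive, and all 13 also passed with Spearman's rho. All but Vegfa with Angpt2 and Flt1 with Angpt2 lay among the receptors, Pecam1 and Cdh5.

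Another pair stood apart from the endothelial genes. Vegfa and Angpt2 had r = 0.81 (rho 0.81, adjusted p = 0.0003), 0.77 without the 2 libraries farthest from the median of Vegfa and 0.88 within groups. Vegfa had r = 0.26 with Pecam1 and 0.01 with Kdr. Flt1 was linked to both sets, with r = 0.73 to Angpt2 (rho 0.60, adjusted p = 0.0012), which was 0.52 without the 2 libraries farthest from the median, and 0.51 to Vegfa (adjusted p = 0.051). Tek went against Angpt2, with r = −0.51 (adjusted p = 0.057) and rho = −0.62 (adjusted p = 0.015), which passed by rank only. Angpt1 and Vegfc had no pair with an adjusted p under 0.05. Without the 3 libraries with genes of other tissues, r was 0.98 for Pecam1 and Cdh5 and 0.84 for Vegfa and Angpt2. Without control replicate 2 it was 0.98 and 0.79.

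**Figure D4:**
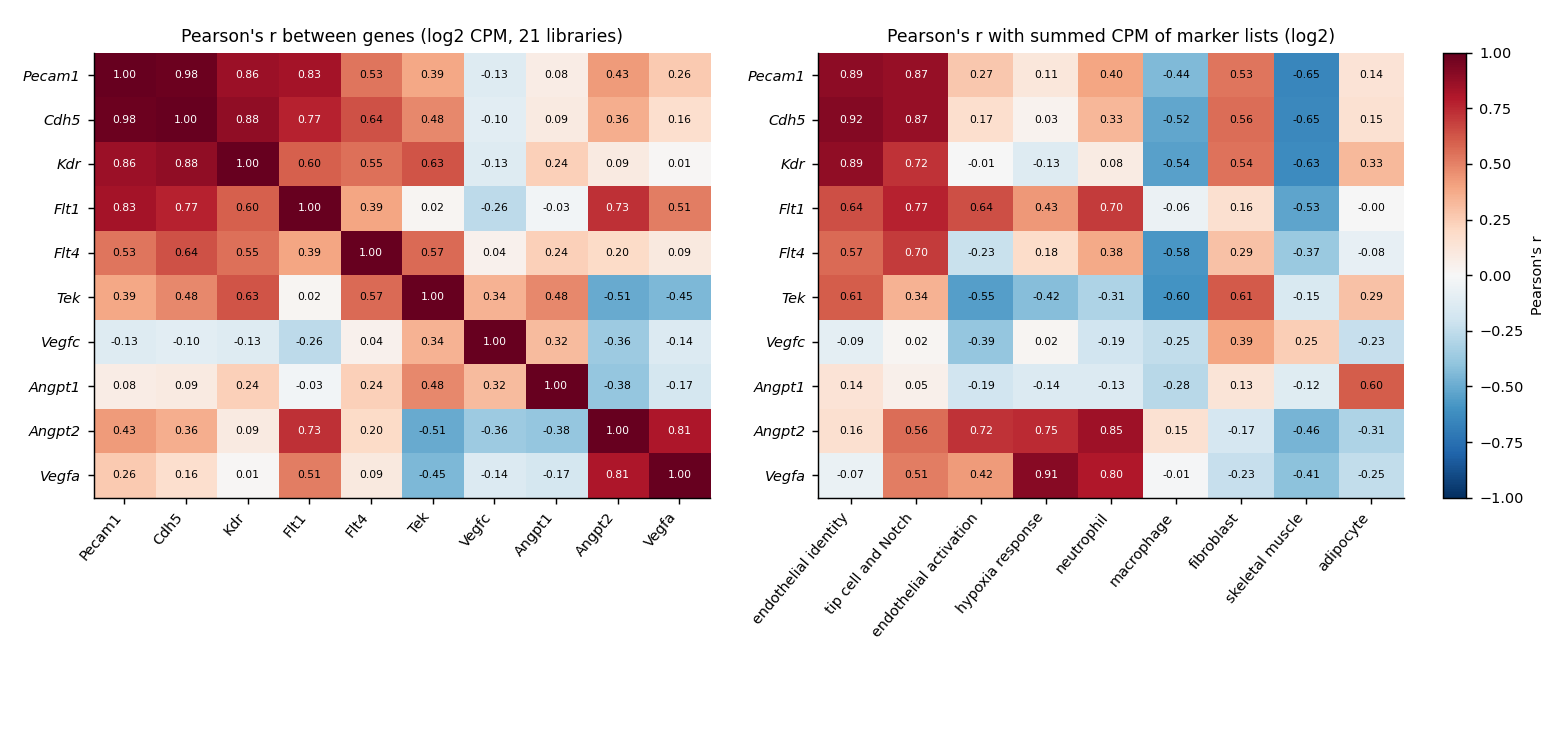
Pearson's r over 21 libraries between the 10 genes on log2 CPM (left) and between each gene and the log2 of the summed CPM of 9 marker lists (right), with red for positive and blue for negative values. Pecam1, Cdh5 and Kdr form 1 block with the endothelial identity list (0.89, 0.92 and 0.89), and Vegfa and Angpt2 another with the hypoxia and neutrophil lists.

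The genes most like each of 3 members were taken from 15810 others by Pearson's r over the 21 libraries. Nearest to Pecam1 after Cdh5 were Erg (r = 0.95), a transcription factor of endothelium, Pcdh1 (0.95), Robo4 (0.94) and Plvap (0.94). Nearest to Vegfa were Mxi1 (0.95), Ppme1 (0.94), Basp1 (0.94), Slc2a1 (0.94), which encodes the glucose transporter GLUT1, and Ell (0.93). Nearest to Angpt2 were Hdc (0.94), which makes histamine, Entpd1 (0.94), Bdkrb2 (0.94), a bradykinin receptor, Ppard (0.94) and Chst11 (0.93). These values describe the libraries, with shared group, wound and library total, and carry no test.

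The summed levels of marker lists gave the same division, in 120 relations computed after the values were seen. Vegfa had r = 0.91 (rho 0.89, adjusted p = 0.00015) with the hypoxia list, of genes such as Slc2a1, Pgk1 and Ldha, and 0.80 (rho 0.82, adjusted p = 0.00015) with the neutrophil list. Within groups these were 0.96 and 0.94, and without the 2 libraries farthest from the median of Vegfa 0.89 and 0.82. Angpt2 had r = 0.85 (rho 0.80, adjusted p = 0.00015) with the neutrophil list and 0.75 (rho 0.71, adjusted p = 0.0012) with the hypoxia list, and 0.94 and 0.87 within groups. Without the 2 libraries farthest from the median of Angpt2 these were 0.69 and 0.57. Neither ligand followed the endothelial identity list, with r of −0.07 for Vegfa and 0.16 for Angpt2.

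Pecam1, Cdh5 and Kdr followed the endothelial identity list, with r of 0.89, 0.92 and 0.89 (rho 0.89, 0.93 and 0.89), and Pecam1 and Cdh5 followed the tip cell and Notch list with r of 0.87 each (rho 0.86 and 0.85). They ran against the skeletal muscle list, with r of −0.65, −0.65 and −0.63 (rho −0.63, −0.63 and −0.63, adjusted p = 0.0097, 0.0097 and 0.015). That list summed to 262 CPM in the library with least and 15986 CPM in the library with most, 6.4/aFGF replicate 3, whose Pecam1 level of 186 CPM was the low one of its group. Within groups r was −0.71 for Pecam1 and −0.73 for Cdh5, and without the 2 libraries farthest from the median −0.59 and −0.64. Tek had r = 0.61 with the fibroblast list (rho 0.56, adjusted p = 0.019) and −0.60 with the macrophage list (rho −0.62, adjusted p = 0.020), and 0.61 with endothelial identity (rho 0.51, adjusted p = 0.020 for r and 0.074 for rho). The lymphatic list ran against Kdr (r = −0.61, rho −0.57, adjusted p = 0.020) and Tek (r = −0.57, rho −0.61, adjusted p = 0.032). Angpt1 had r = 0.60 with the adipocyte list (rho 0.58, adjusted p = 0.020), 0.76 within groups. Vegfc passed with none of the 12 lists. Without the 2 libraries farthest from the median, these relations of Tek and Angpt1 kept their sign, with sizes of r from 0.52 to 0.72. How much of these relations comes from the makeup of each wound sample was not tested.

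**Figure D5:**
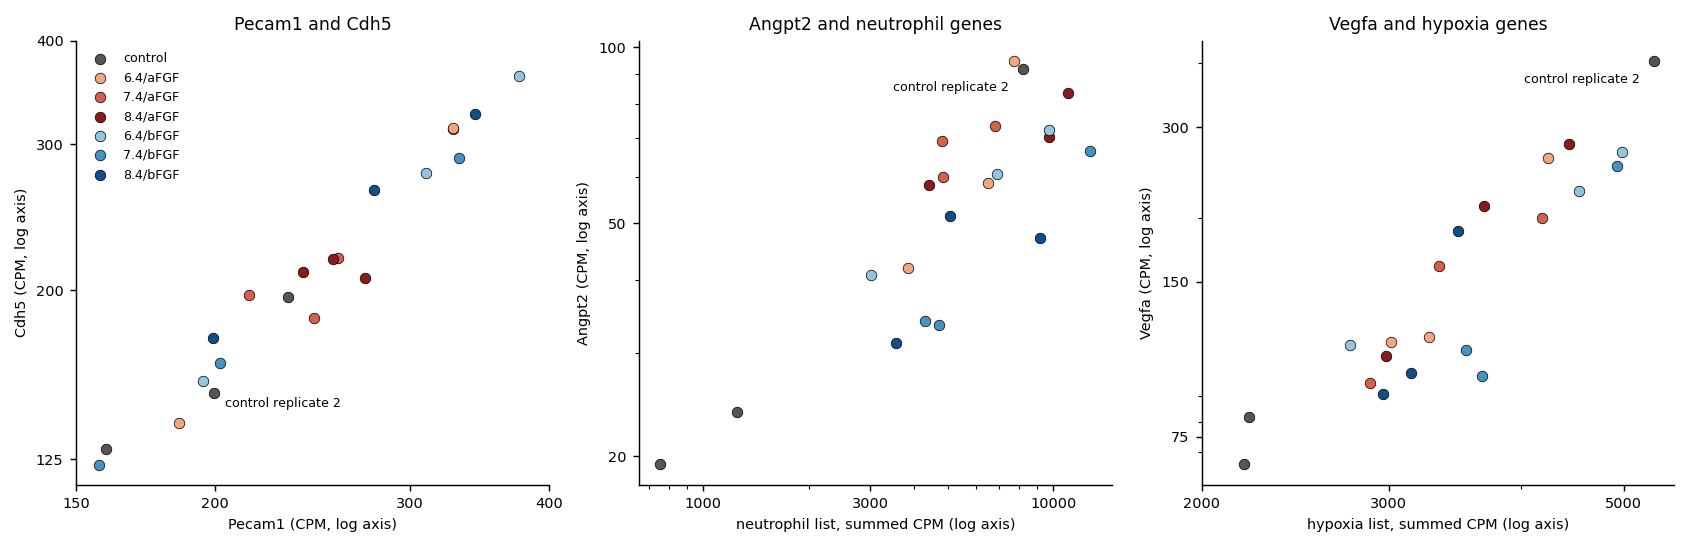
Each point is a library, coloured by group, on log axes in CPM: Cdh5 against Pecam1 (left), Angpt2 against the summed neutrophil list (middle) and Vegfa against the summed hypoxia list (right). Pecam1 and Cdh5 lie on 1 line with the groups mixed along it, and control replicate 2 lies at the upper end of the Vegfa and Angpt2 plots while the other 2 control libraries lie at the lower end.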

How the data were processed

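RNA from wounds of 3 mice per group was sequenced with a stranded mRNA kit (TruSeq). For each library the authors deposited a count of reads for every gene, unnormalised, beside its FPKM value, which uses 1 fixed length per gene. The submitters' notes name the build GRCm39, while the aligner, counter and strand setting are not given in the sources used here, nor is any batch or date. The 10 genes and the gene lists were chosen with earlier results of these data known.

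Counts were filtered (filterByExpr), TMM-normalised and tested with edgeR 4.0.16 quasi-likelihood (R 4.3.3), Benjamini-Hochberg adjusted over all genes, with calls made where the adjusted p was under 0.05 and the log2 change passed 0.58 in size (for the 7 groups, on p alone). Pairs of groups were fitted alone, the interaction on its 4 groups and other comparisons on all 21 libraries. CPM values use TMM factors, and log2 CPM a prior count of 2. Ratios used exact permutation tests and correlations 100000 permutations (NumPy 2.4.6). Scripts were tested on simulated data. Other genes came from a rule: per list, the 2 with the smallest p in 6.4/aFGF against the other groups and in hydrogels against control, those called anywhere, and the 5 most like Pecam1, Vegfa and Angpt2. Genes high in 1 library alone exceeded 0.5 CPM and 8 times the next library plus 0.05 CPM. Alternatives were DESeq2 1.42.0, RLE factors, no filter, limma 3.58.1 on log2(FPKM + 1) and log2(FPKM + 0.1), a replicate block and leaving out libraries. Fits at each pH, fits of the 18 hydrogel libraries, the Tek to Pecam1 ratio, the list correlations and the list counts with libraries left out were added after seeing the data.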

Additional observations from a re-analysis of the deposited data

How the results depend on the processing

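Of 1410 alternative values of the log2 fold changes of the 10 genes, 111 had the other sign, and 0 of these had an adjusted p under 0.05. Vegfa in hydrogels against control changed sign with limma (0.212 on log2(FPKM + 1), with or without a filter, and 0.225 on log2(FPKM + 0.1)) and ran from −0.56 to 1.15 when single libraries were left out, and Angpt2 ran from −0.017 to 1.40. Tek in 6.4/bFGF against 7.4/bFGF, close to 0, was −0.0027 with DESeq2, −0.0027 with RLE factors, −0.116 and −0.147 with limma (−0.116 without a filter), −0.108 with the replicate block, −0.013 in a fit of all 21 libraries and −0.43 to 0.32 without single libraries. Angpt1 in aFGF against bFGF was 0.28 at pH 6.4. The Flt1 to Kdr ratio in 6.4/aFGF against 7.4/aFGF was 0.0021 without the 3 libraries with other tissues and −0.14 to 0.027 without single libraries. Without single libraries, the Angpt2 to Angpt1 ratio in 6.4/aFGF against the other 18 libraries ran from −0.18 to 0.26, and Tek to Pecam1 in aFGF against bFGF from −0.57 to −0.43, and from −0.13 to 0.23 at pH 6.4. The causes were not tested.

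Members with an adjusted p under 0.05 in aFGF against bFGF numbered 1 with each of the 3 limma settings, 1 with the replicate block, 0 without the 3 libraries with other tissues, 0 at pH 6.4, 0 at pH 7.4, 0 at pH 8.4 and 0 to 2 without single libraries. Members called ran from 0 to 1 there and from 0 to 2 in hydrogels against control, where the 2 came without control replicate 2. Over all genes, edgeR called 0 in 6.4/aFGF against 7.4/aFGF, 0 in 6.4/aFGF against the other groups, 1 in hydrogels against control, 506 in aFGF against bFGF, 0 in 6.4/bFGF against 7.4/bFGF, 0 for the interaction and 18 for any difference, where DESeq2 called 20, 9, 171, 777, 113, 28 and 2030. In aFGF against bFGF, limma on log2(FPKM + 1) called 212 genes, and 191 without a filter, and leaving out single libraries gave 269 to 714. At single pH values 0, 12 and 10 genes were called. In 6.4/bFGF against 7.4/bFGF, 278 genes were called without 7.4/bFGF replicate 3, and for any difference 864 without control replicate 2.

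Same-numbered libraries of different groups showed no common deviation (median r of 0.059, −0.015 and −0.020 for replicates 1, 2 and 3). Single pairs ran from −0.64 to 0.42, so these values cannot exclude that the numbers pair some samples. With the replicate block, 2 genes were called in hydrogels against control and 10 for any difference. Groups of 3 leave wide intervals: that of Pecam1 in 6.4/aFGF against the other groups ran from −0.27 to 0.65 on the log2 scale.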
